A study of Rattus norvegicus with 9 samples.

Results

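Glycolysis and glycogen metabolism were followed in the tibialis anterior muscle (TIB) of the rat through 42 genes, which cover glucose entry, each step from glucose to lactate, the side branches at fructose bisphosphatase and glycerol 3-phosphate, and the making, breakdown and targeting of glycogen. A gene was measured through the probe sets that the array annotation gives to its symbol alone, and where several did so the brightest over all arrays was used. By this rule 41 of the 42 genes were measured, out of 14506 genes with such a probe set, and Ppp1r3c, which encodes a glycogen-targeting subunit of protein phosphatase 1, was not analysed here.

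The study compared male Sprague Dawley rats that were fed (Fed), fasted until phase 2 (P2) or fasted until phase 3 (P3), with 3 rats per group and 1 Affymetrix Rat Gene 1.0 ST array per rat. In P2 body mass falls slowly while protein is spared, and in P3 the loss of body mass accelerates as body protein is mobilized. The rats carried no transgene and received no drug, had free access to water, and those in P3 were killed on the day after that phase began. The labels give no age, and RNA came from pieces of whole muscle, so that fewer cells of a type and less RNA per cell cannot be told apart.

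Glycolysis splits glucose into pyruvate, which yields a little ATP without oxygen and can be reduced to lactate. TIB is a mostly fast muscle, and fast fibres keep a store of glycogen that phosphorylase, switched on by phosphorylase kinase, breaks down during contraction. Many steps have a muscle isozyme beside a form that is typical of other tissues, such as phosphoglycerate mutase 2 beside phosphoglycerate mutase 1, so a change at a step can involve either form.

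All values are log2 intensities of 1 probe set per gene, and a gene was called lower or higher where the adjusted p of limma was under 0.05. The 9 arrays had medians between 5.80 and 5.90, and Pearson's r across probe sets was 0.987 to 0.994 within groups and 0.957 to 0.987 between groups. Fast fibre markers were bright on all arrays, with means over 10 genes of 13.37 to 13.39 in Fed, 13.22 to 13.25 in P2 and 12.95 to 13.01 in P3, and in P3 versus Fed 3 of them fell (Pvalb, Tnni2 and Mylpf). Means over 8 slow fibre markers were 10.47 to 10.69 in Fed, 9.32 to 10.17 in P2 and 9.06 to 9.71 in P3, and in P3 versus Fed 6 of them fell. Means over 5 fibroblast markers were 10.18 to 10.49 in Fed, 8.76 to 9.98 in P2 and 7.64 to 8.95 in P3, and in P3 versus Fed 3 of the 5 fell. Of 6 macrophage and 5 endothelial markers, 1 each rose in P3 (Cd163 and Pecam1). The part of fibre type and of other cells in the changes of the glycolytic genes was not tested. Array P2 1 carried the lowest weight, 0.381, when the arrays were weighted by their spread, and P2 3 the highest, 2.26.

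During P3, glycolytic and glycogen genes fell at most steps, and the fall came largely after P2. In P2 versus Fed, 7 of 41 genes were lower and 0 were higher, where 5.57% of all genes were called lower and 7.07% higher. At an unadjusted p under 0.05 limma gave 14 lower and 3 higher (Aldoc, Gyg1 and Ppp1r3a) in P2. The share of all genes was not counted at this looser threshold, so these 2 counts cannot be compared with it. The test named in the study's methods, at its stricter p of 0.001, called 3 lower and 0 higher. In P3 versus Fed, 20 were lower and 5 were higher, where 17.1% of all genes were called lower and 18.2% higher. In P3 versus P2, 20 were lower and 3 were higher, against 10.4% lower and 11.4% higher among all genes. The median log2 fold change of the 41 genes was -0.08 in P2 and -0.39 in P3 versus Fed, while the medians over all genes were 0.0051 and -0.0145. Both comparisons share the 3 fed rats. A p-value of limma sets a difference of group means against the spread between rats, which is estimated with the help of all probe sets.

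**Figure D1:**
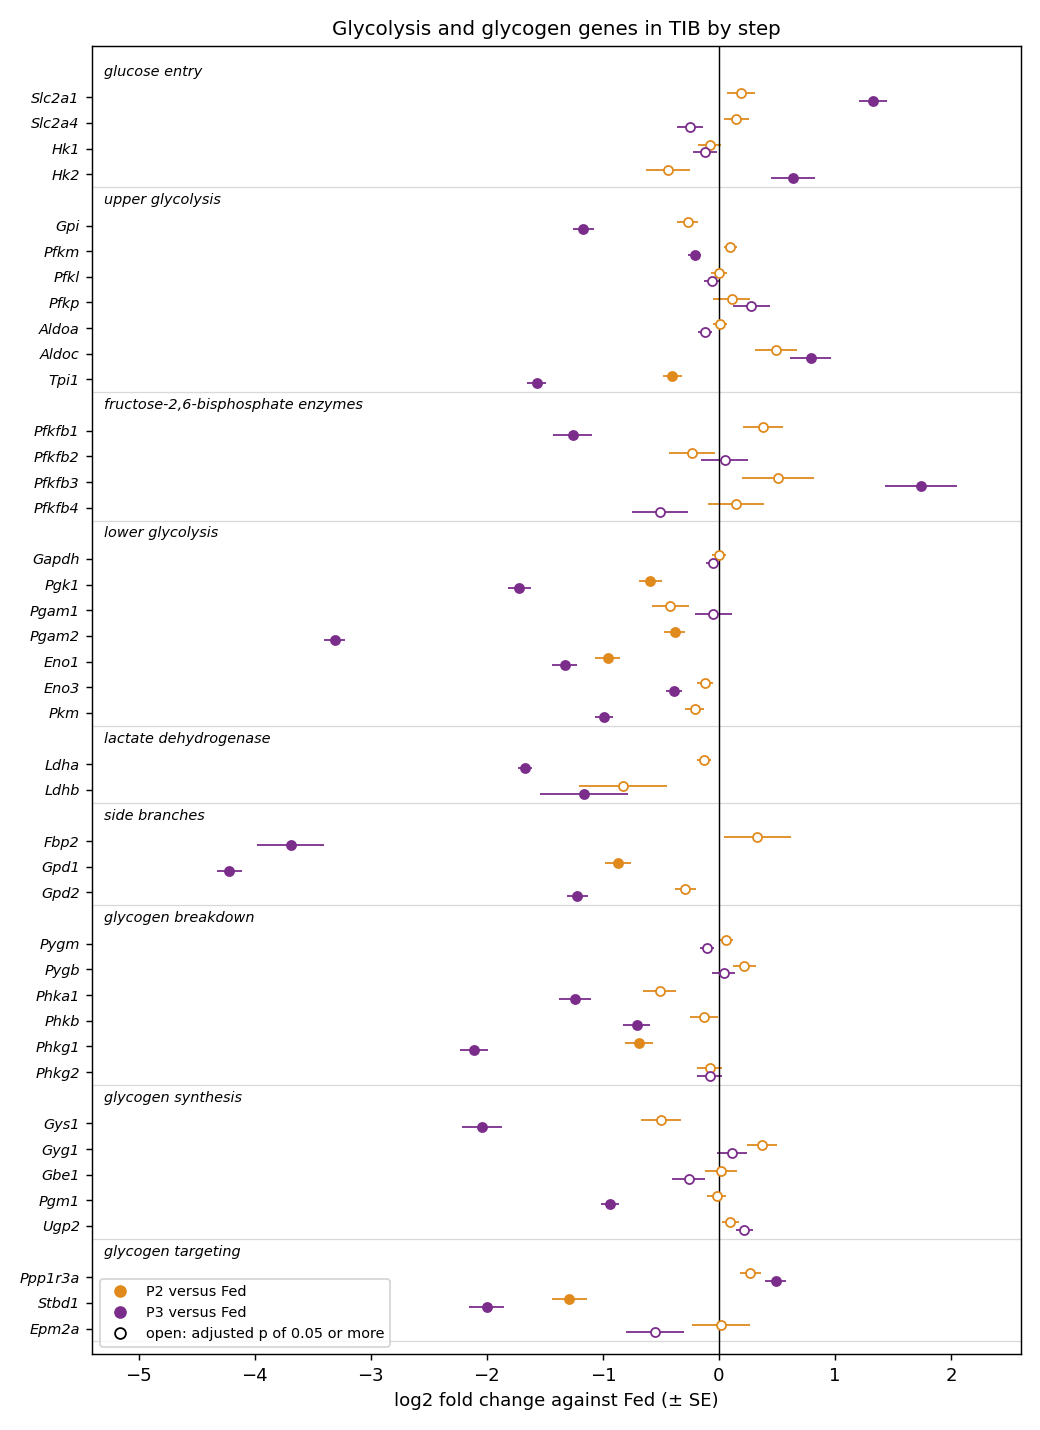
Log2 fold change versus Fed of the 41 genes (horizontal axis, log2 scale), grouped by step (vertical axis), for P2 and P3, with 3 rats per group and bars of ± 1 SE. Filled points have a limma adjusted p under 0.05 and open points do not. The P3 points reach from -4.22 for Gpd1 to 1.74 for Pfkfb3, and the P2 points from -1.29 for Stbd1 to 0.51 for Pfkfb3.

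The 7 genes that were lower in P2 (Tpi1, Pgk1, Pgam2, Eno1, Gpd1, Phkg1 and Stbd1) were also lower in P3 versus Fed and in P3 versus P2. A group of 12 genes was not called in P2 but was lower in P3 versus both other groups (Gpi, Pfkm, Pfkfb1, Eno3, Pkm, Ldha, Fbp2, Gpd2, Gys1, Pgm1, Phka1 and Phkb). Higher in P3 versus both other groups were 3 genes, Slc2a1, Hk2 and Pfkfb3. No call was made in any of the 3 comparisons for 15 genes. In P3 versus Fed, 15 genes fell at least 2-fold. The shares of all genes with these patterns or with such a fall were not counted, so these counts cannot be compared with them.

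At glucose entry, 2 of 4 genes were higher in P3 and 0 were lower. Slc2a1, the basal glucose transporter GLUT1, measured 6.21, 6.23 and 6.18 in Fed, 6.46, 6.57 and 6.16 in P2 and 7.57, 7.67 and 7.36 in P3. The 3 rats in P3 lay above all others, and the rise was 1.33 ± 0.12 (log2 fold change ± SE) versus Fed, or 2.51-fold (adjusted p = 3.61e-05). Slc2a4, the insulin-responsive transporter GLUT4, measured 10.28, 10.44 and 10.27 in Fed, 10.47, 10.69 and 10.29 in P2 and, in P3, 10.09 and 10.15 in P3 1 and P3 3 and a mean of 10.08 ± 0.08 (SD, n = 3). Its level was not called versus Fed in P2 (0.15 ± 0.11, adjusted p = 0.481) or P3 (-0.25 ± 0.11, adjusted p = 0.118), whereas P3 lay below P2 (-0.40 ± 0.11, adjusted p = 0.0323). That call was lost without Fed 1 (adjusted p = 0.0504), P2 1 (0.0651), P2 2 (0.0811), P3 1 (0.0812), P3 2 (0.106) or P3 3 (0.0611).

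Hexokinase traps glucose in the cell as glucose 6-phosphate, and Hk2 is its insulin-responsive muscle form. Hk2 measured 10.03, 10.15 and 10.14 in Fed, 9.21, 10.06 and 9.72 in P2 and 10.88, 10.83 and 10.53 in P3. P3 lay above both other groups without overlap, whereas P2 and Fed overlapped. The change versus Fed was -0.44 ± 0.19 at P2 (adjusted p = 0.216) but 0.64 ± 0.19 at P3 (adjusted p = 0.0339), and P3 was 2.12-fold higher than P2 (1.08 ± 0.19, adjusted p = 0.00453). The call of P3 versus Fed was lost without Fed 1 (adjusted p = 0.0963), Fed 2 (0.0786), Fed 3 (0.08), P2 3 (0.0522), P3 1 (0.108) or P3 2 (0.1). Quantile normalization once more also lost this call (0.56, adjusted p = 0.0666). Hk1, the form found in most tissues, was not called in P3 (-0.12 ± 0.10, adjusted p = 0.431).

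Among the 7 genes of upper glycolysis, from glucose 6-phosphate to the triose phosphates, 3 were lower in P3 and 1 was higher. Tpi1, which interconverts the triose phosphates, measured 12.85, 13.03 and 12.98 in Fed, 12.61, 12.49 and 12.57 in P2 and 11.42, 11.26 and 11.46 in P3. The 3 groups did not overlap, and P3 was 2.98-fold lower than Fed (-1.57 ± 0.08, adjusted p = 1.79e-06). The smaller fall in P2 (-0.40 ± 0.08, adjusted p = 0.0172) was not called without Fed 2 (adjusted p = 0.0681), Fed 3 (0.0589), P2 2 (0.0572) or P2 3 (0.0538). Gpi, which makes fructose 6-phosphate, measured 12.26, 12.25 and 12.32 in Fed, 12.19, 11.90 and 11.92 in P2 and 11.05, 11.17 and 11.11 in P3. Again the groups did not overlap, and Gpi was 2.25-fold lower in P3 (-1.17 ± 0.09, adjusted p = 1.42e-05). In P2 its change was -0.27 ± 0.09 (adjusted p = 0.0991), which passed without P2 1 (-0.37, adjusted p = 0.0147).

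The enzymes of the committed step moved little. Pfkm, the muscle phosphofructokinase, measured 13.18, 13.24 and 13.23 in Fed, 13.29, 13.35 and 13.30 in P2 and 12.95, 13.04 and 13.03 in P3. The fall in P3 versus Fed was small (-0.21 ± 0.06, adjusted p = 0.0313), and it was not called without Fed 2 (adjusted p = 0.087), Fed 3 (0.0794), P3 1 (0.1) or P3 3 (0.0606), after quantile normalization once more (0.177) or after centring on array medians (0.0722). Pfkl and Pfkp, the liver and platelet forms, were not called in P3 (-0.06 ± 0.07 and 0.28 ± 0.16, adjusted p = 0.535 and 0.239). Aldoa, the muscle aldolase, was not called either and stayed within 13.61 to 13.86 on all 9 arrays. Aldoc, the brain aldolase, measured 5.89, 5.37 and 5.84 in Fed, 6.33, 6.23 and 6.02 in P2 and 6.19, 6.78 and 6.50 in P3, a rise of 0.79 ± 0.18 in P3 (adjusted p = 0.00868) from a level near the median of the arrays.

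The enzymes that make and remove fructose 2,6-bisphosphate, the activator of phosphofructokinase, changed in opposite directions. Pfkfb1, the isozyme of liver and muscle, measured 10.79, 10.87 and 10.78 in Fed, 11.04, 11.45 and 11.08 in P2 and 9.93, 9.24 and 9.50 in P3. It was highest in P2 and lowest in P3 without overlap, and it fell 2.39-fold versus Fed (-1.26 ± 0.17, adjusted p = 0.000528) and 3.10-fold versus P2 (-1.63 ± 0.17, adjusted p = 0.000279). Pfkfb3, the inducible isozyme with high kinase activity, measured 10.43, 9.83 and 9.24 in Fed, 10.34, 9.87 and 10.81 in P2 and 11.57, 11.36 and 11.78 in P3. Fed and P2 overlapped widely and P3 lay above both, 3.34-fold higher than Fed (1.74 ± 0.31, adjusted p = 0.00244) and 2.35-fold higher than P2 (1.23 ± 0.31, adjusted p = 0.0256). The latter call was lost without P2 1 (adjusted p = 0.0627), P2 2 (0.0782), P3 1 (0.0712), P3 2 (0.0501) or P3 3 (0.0939). Pfkfb2 and Pfkfb4 were not called in P3 (0.05 ± 0.20 and -0.51 ± 0.24, adjusted p = 0.895 and 0.153).

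**Figure D2:**
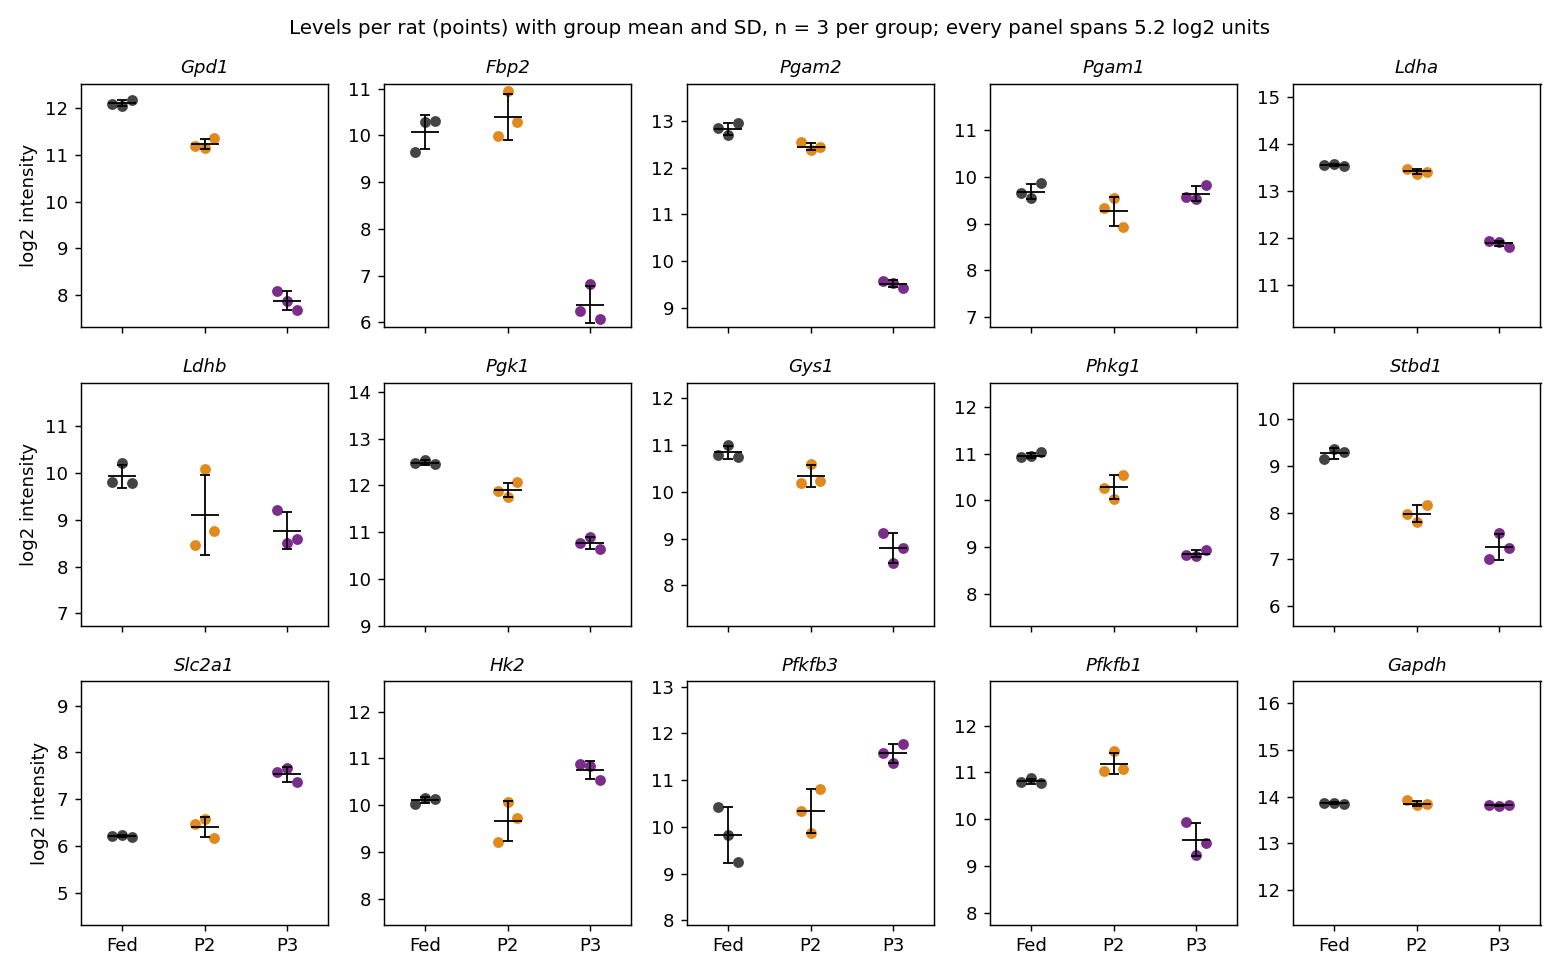
Log2 intensity (vertical axis) of single genes in each of the 9 rats, by group (Fed, P2 and P3, horizontal axis), with 1 point per rat and the group mean and SD as bars. Gpd1 lies between 12.05 and 12.16 in Fed and between 7.68 and 8.09 in P3, and Fbp2 does not separate P2 (9.98 to 10.94) from Fed (9.65 to 10.30).

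Lower glycolysis, from glyceraldehyde 3-phosphate to pyruvate, held 3 of the 7 genes that were lower in P2. In P3, 5 of its 7 genes were lower and 0 were higher, with a median log2 fold change of -0.99. Pgk1, which gains the first ATP of this stretch, measured 12.48, 12.55 and 12.45 in Fed, 11.88, 11.76 and 12.07 in P2 and 10.76, 10.89 and 10.65 in P3. It stepped down without overlap from Fed to P2 (-0.59 ± 0.10, adjusted p = 0.00629) and was 3.30-fold lower in P3 than in Fed (-1.72 ± 0.10, adjusted p = 2.65e-06). Pkm, the pyruvate kinase of muscle, was within 13.08 to 13.26 in Fed, 12.86 to 13.03 in P2 and 12.12 to 12.21 in P3, and was 1.99-fold lower in P3 than in Fed (-0.99 ± 0.08, adjusted p = 1.62e-05). Gapdh, which oxidises glyceraldehyde 3-phosphate, had 16 probe sets, and 0 were called in any comparison, with log2 fold changes of -0.09 to -0.03 in P3. Its brightest probe set, at 13.80 to 13.92, lay close to the array maxima, and the part of this in its small change was not tested.

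Phosphoglycerate mutase showed the widest gap between isozymes. Pgam2, the muscle form, measured 12.84, 12.69 and 12.96 in Fed, 12.55, 12.38 and 12.43 in P2 and 9.58, 9.54 and 9.43 in P3. P3 was 9.92-fold lower than Fed (-3.31 ± 0.09, adjusted p = 1.24e-07) and 7.65-fold lower than P2 (-2.94 ± 0.09, adjusted p = 9.17e-07). Pgam1, the form of most other tissues, measured 9.65, 9.55 and 9.86 in Fed, 9.33, 9.54 and 8.93 in P2 and 9.57, 9.52 and 9.82 in P3. It was not called in P3 versus Fed (-0.05 ± 0.16, adjusted p = 0.869), with Fed and P3 overlapping throughout. The P2 call of Pgam2 (-0.38 ± 0.09, adjusted p = 0.0305) was lost without Fed 1 (adjusted p = 0.0859), Fed 3 (0.0964), P2 2 (0.0937) or P2 3 (0.0957), and with the fit of these groups alone (0.0667).

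The promoters of this pair are shown because their transcripts moved so differently. RefSeq on GRCr8 gives a window of 250 bases before the transcription start at chr14:84897875-84898124 (minus strand) for Pgam2 and chr1:250672902-250673151 (plus strand) for Pgam1. Both are written 5′ to 3′ along the gene, and capitals mark the E-box CANNTG, the motif bound by myogenic factors and other helix-loop-helix proteins, which was searched on both strands with overlapping matches counted once.
Pgam2: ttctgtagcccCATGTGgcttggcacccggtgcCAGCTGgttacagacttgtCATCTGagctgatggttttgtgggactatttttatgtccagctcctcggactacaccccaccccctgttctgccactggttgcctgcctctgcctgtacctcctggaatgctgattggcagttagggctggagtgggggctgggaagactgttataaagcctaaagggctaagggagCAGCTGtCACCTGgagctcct
Pgam1: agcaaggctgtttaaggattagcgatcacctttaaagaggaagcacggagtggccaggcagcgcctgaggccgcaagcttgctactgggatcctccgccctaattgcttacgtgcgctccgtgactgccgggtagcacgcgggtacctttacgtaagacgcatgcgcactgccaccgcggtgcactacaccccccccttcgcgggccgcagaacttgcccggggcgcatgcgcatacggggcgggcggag
The Pgam2 window holds 5 E-boxes, 239, 217, 198, 21 and 14 bases before the start, and the Pgam1 window holds 0. At least 1 E-box is present in 65.5% of 33469 rat promoter windows of this length and at least 5 in 0.852%. Among the measured genes 37 have a window, 42 windows in all, of which 52.4% hold an E-box. In 2 other pairs the window of the muscle form holds 3 E-boxes and that of the other form 0. Of these, Phkg1 minus Phkg2 was lower in P3 versus Fed and Pygm minus Pygb was not called. The muscle form did not hold more E-boxes in every pair. Pfkm holds 0, where Pfkl holds 2 and Pfkp 1, and Pfkm minus Pfkp was called lower in P3. Hk2 holds 0 and the windows of Hk1 hold 0 and 2, while Eno3 holds 1 and the windows of Eno1 hold 3 and 0. Ldha holds 2 and Ldhb 0, the windows of Aldoa hold 1, 0 and 0 and that of Aldoc 1, and Slc2a4 has no window. A match describes letters in a window and is not a measured binding site, and the part of E-boxes in these changes was not tested.

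In enolase, the form of most tissues fell further than the muscle form. Eno1, the form of most tissues, measured 11.09, 11.41 and 11.27 in Fed, 10.30, 10.35 and 10.23 in P2 and 9.91, 9.77 and 10.08 in P3. All 3 of its probe sets were lower in P2 and in P3, and the brightest fell 1.95-fold in P2 (-0.96 ± 0.11, adjusted p = 0.000957) and 2.52-fold in P3 (-1.33 ± 0.11, adjusted p = 1.88e-05). Eno3, the muscle form, measured 13.49, 13.51 and 13.51 in Fed, 13.42, 13.36 and 13.38 in P2 and 13.20, 13.04 and 13.09 in P3. It was not called in P2 (-0.12 ± 0.07, adjusted p = 0.36) and fell 1.31-fold in P3 (-0.39 ± 0.07, adjusted p = 0.00181). Eno3 lay near the top of the array scale, as did the brighter probe set of Ldha, which fell by 1.67 in P3 where the dimmer one fell by 2.68, and the part of this in the gap between the enolases was not tested. The further falls between P2 and P3 were small for both genes (-0.37 ± 0.11 for Eno1, adjusted p = 0.0441, and -0.27 ± 0.07 for Eno3, adjusted p = 0.0211). That of Eno1 was lost without Fed 3 (adjusted p = 0.0682), P2 1 (0.0918), P2 2 (0.119), P2 3 (0.0766), P3 1 (0.11) or P3 2 (0.141), and that of Eno3 without P2 1 (0.052), P2 3 (0.0573), P3 2 (0.0673) or P3 3 (0.0696). Between P2 and P3 only the brightest of the 3 Eno1 probe sets was called, and the others had adjusted p = 0.0526 and 0.0537.

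Lactate dehydrogenase interconverts pyruvate and lactate, with Ldha as the subunit of fast muscle and Ldhb as that of heart and slow muscle. Ldha measured 13.55, 13.58 and 13.53 in Fed, 13.47, 13.37 and 13.41 in P2 and 11.93, 11.90 and 11.81 in P3. P3 lay far below both other groups, 3.18-fold lower than Fed (-1.67 ± 0.06, adjusted p = 4.11e-07), and P2 was not called (-0.13 ± 0.06, adjusted p = 0.274). A dimmer probe set of Ldha fell further, by 2.68 in P3, and was also called in P2 (-0.46 ± 0.11, adjusted p = 0.0337). Ldhb measured 9.80, 10.21 and 9.78 in Fed, 8.46, 10.08 and 8.76 in P2 and 9.21, 8.51 and 8.58 in P3, so that P2 2 was as high as Fed while the other P2 rats were low. The slow fibre markers averaged 10.17 on P2 2 and 9.58 and 9.32 on the other P2 arrays, and the part of slow fibres in the Ldhb values was not tested. Ldhb was lower in P3 than in Fed (-1.16 ± 0.38, adjusted p = 0.0488), a call that was lost without Fed 1 (adjusted p = 0.0904), Fed 2 (0.154), Fed 3 (0.0931), P2 3 (0.0623), P3 2 (0.143) or P3 3 (0.135), and its P2 change (-0.83 ± 0.38, adjusted p = 0.245) was called without P2 2 (-1.32, adjusted p = 0.0147).

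The promoters of Ldha, which fell in P3, and Pfkfb3, which rose, are shown because both are textbook targets of hypoxia-inducible factor (HIF). The windows lie at chr1:106507842-106508091 and chr17:71944683-71944932 on the plus strand of GRCr8 (RefSeq), and capitals mark the HIF core ACGTG on either strand, written out to CACGTG where both strands match, which is also an E-box.
Ldha: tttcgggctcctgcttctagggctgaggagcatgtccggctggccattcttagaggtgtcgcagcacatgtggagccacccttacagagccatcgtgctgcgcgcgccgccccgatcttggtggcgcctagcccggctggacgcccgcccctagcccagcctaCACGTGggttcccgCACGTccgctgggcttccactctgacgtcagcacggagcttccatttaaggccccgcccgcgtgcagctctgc
Pfkfb3: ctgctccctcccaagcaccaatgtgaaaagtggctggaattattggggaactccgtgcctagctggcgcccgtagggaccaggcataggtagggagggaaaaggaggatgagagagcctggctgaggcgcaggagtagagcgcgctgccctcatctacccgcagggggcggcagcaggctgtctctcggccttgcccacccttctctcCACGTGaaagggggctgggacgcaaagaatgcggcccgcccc
Ldha has 2 HIF cores, 87 and 73 bases before the start, and Pfkfb3 has 1, 42 bases before it. The core is present in 40.5% of the 42 windows of glycolytic and glycogen genes and in 16.6% of the 33469 windows. Of the 17 measured genes with the core, Ldha, Pfkm, Pgm1 and Phkg1 were lower in P3 versus Fed, and Aldoc, Pfkfb3 and Slc2a1 were higher. The rest of the 17 were not called. Among all genes, 17.1% were called lower and 18.2% higher in P3 versus Fed. The part of HIF in these values was not tested. Hif1a, the oxygen-regulated HIF subunit, was not called at the transcript level in P3 (-0.10 ± 0.11, adjusted p = 0.559).

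The side branches held the steepest falls, and all 3 of their genes were lower in P3. Gpd1, the cytosolic glycerol 3-phosphate dehydrogenase that regenerates NAD+ in fast fibres, measured 12.09, 12.05 and 12.16 in Fed, 11.19, 11.15 and 11.35 in P2 and 8.09, 7.87 and 7.68 in P3. It fell at each phase without overlap, 1.83-fold in P2 (-0.87 ± 0.11, adjusted p = 0.00167) and 18.6-fold in P3 (-4.22 ± 0.11, adjusted p = 1.24e-07) versus Fed. Gpd2, its mitochondrial partner in the glycerol phosphate shuttle, measured 10.07, 10.10 and 10.04 in Fed, 9.78, 9.67 and 9.88 in P2 and 8.79, 9.04 and 8.74 in P3. Its fall was 2.32-fold in P3 (-1.22 ± 0.09, adjusted p = 1.66e-05), and its P2 change (-0.29 ± 0.09, adjusted p = 0.0961) was called without P3 2 (adjusted p = 0.0482).

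Fbp2, the muscle fructose bisphosphatase that opposes phosphofructokinase, measured 9.65, 10.28 and 10.30 in Fed, 9.98, 10.94 and 10.29 in P2 and 6.25, 6.82 and 6.07 in P3. Fed and P2 overlapped, and P3 lay below both by a wide margin. Fbp2 was not called in P2 (0.33 ± 0.29, adjusted p = 0.58), was 12.9-fold lower in P3 than in Fed (-3.69 ± 0.29, adjusted p = 1.62e-05) and lay 16.3-fold below its P2 level (-4.02 ± 0.29, adjusted p = 3.62e-05).

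Glycogen phosphorylase itself was not called in any comparison, while subunits of the kinase that activates it fell. Pygm, the muscle phosphorylase, stayed within 13.37 to 13.60 on all arrays (P3 versus Fed, -0.10 ± 0.06, adjusted p = 0.245). Its change in P3 versus P2 (-0.16 ± 0.06, adjusted p = 0.107) was called with an intensity trend (adjusted p = 0.0383) or array weights (0.0441). Pygm lay near the top of the array scale, and the part of this in its small change was not tested. Pygb, the brain form, was not called either (0.04 ± 0.10 in P3 versus Fed, adjusted p = 0.834). Of the phosphorylase kinase subunits, 3 of 4 were lower in P3. Phkg1, the catalytic subunit of muscle, measured 10.92, 10.95 and 11.03 in Fed, 10.26, 10.02 and 10.54 in P2 and 8.83, 8.81 and 8.94 in P3. It fell without overlap by 1.61-fold in P2 (-0.69 ± 0.12, adjusted p = 0.00878) and 4.30-fold in P3 (-2.11 ± 0.12, adjusted p = 3.09e-06). The other catalytic subunit, Phkg2 of liver and testis, was not called (-0.08 ± 0.11 in P3, adjusted p = 0.658). Phka1, the regulatory subunit of muscle, fell 2.36-fold in P3 (-1.24 ± 0.14, adjusted p = 0.000163), and Phkb, the other regulatory subunit, fell 1.64-fold (-0.71 ± 0.12, adjusted p = 0.00216). The P2 change of Phka1 (-0.51 ± 0.14, adjusted p = 0.0586) was called without P2 3 (-0.62, adjusted p = 0.0492) or P3 1 (-0.51, adjusted p = 0.0358).

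On the side of glycogen synthesis, 2 of 5 genes were lower in P3 and 0 were higher. Gys1, the muscle glycogen synthase, measured 10.78, 10.99 and 10.75 in Fed, 10.18, 10.60 and 10.24 in P2 and 9.12, 8.48 and 8.80 in P3. The groups did not overlap, and P3 was 4.11-fold lower than Fed (-2.04 ± 0.17, adjusted p = 2.45e-05), while the P2 change missed the threshold (-0.50 ± 0.17, adjusted p = 0.117). Pgm1, which interconverts glucose 1-phosphate and glucose 6-phosphate, measured 12.89, 13.01 and 12.91 in Fed, 12.85, 12.87 and 13.02 in P2 and 11.92, 12.03 and 12.04 in P3. Fed and P2 overlapped, and P3 was 1.92-fold lower than Fed (-0.94 ± 0.08, adjusted p = 1.93e-05). Gyg1, the glycogenin that primes the granule, and Gbe1, the branching enzyme, were not called in P3 (0.11 ± 0.13 and -0.26 ± 0.14, adjusted p = 0.603 and 0.205). Ugp2, which supplies UDP-glucose, was just short of a call in P3 (0.22 ± 0.07, adjusted p = 0.0501) and was called without Fed 3 (0.26, adjusted p = 0.0464) or P3 3 (0.26, adjusted p = 0.0465).

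The proteins that bind to the glycogen granule diverged. Stbd1, which tethers glycogen to membranes and links it to autophagy, measured 9.14, 9.36 and 9.30 in Fed, 7.97, 7.80 and 8.16 in P2 and 7.0, 7.56 and 7.25 in P3. It had the largest P2 fall of the 41 genes, 2.45-fold (-1.29 ± 0.15, adjusted p = 0.0011), and was 3.99-fold lower in P3 (-2.0 ± 0.15, adjusted p = 1.23e-05). Ppp1r3a, the subunit that brings protein phosphatase 1 to glycogen in muscle, measured 12.02, 11.92 and 12.16 in Fed, 12.16, 12.36 and 12.38 in P2 and 12.56, 12.41 and 12.59 in P3. P3 lay above both other groups, with a rise of 0.49 ± 0.09 versus Fed (adjusted p = 0.00392), but it was not called versus P2 (0.22 ± 0.09, adjusted p = 0.184). Epm2a, the glycogen phosphatase laforin, was not called in P3 (-0.55 ± 0.25, adjusted p = 0.14) but was without P2 2 (-0.55, adjusted p = 0.0219), as was its change from P2 to P3 (-0.88, adjusted p = 0.00823).

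Muscle and other isozymes were compared directly in 10 pairs, each as the difference of the log2 values on the same array, so that a negative change means that the muscle form went down relative to the other form. In P3 versus Fed, 7 of 10 pairs changed unequally. The difference went down in 5 and up in 2. In 2 of those 5 pairs the muscle form was not called and the other form was higher (Slc2a1 and Aldoc), and in Pfkm minus Pfkp the other form was not called. Probe sets are compared here by how they changed, not by level.

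**Figure D3:**
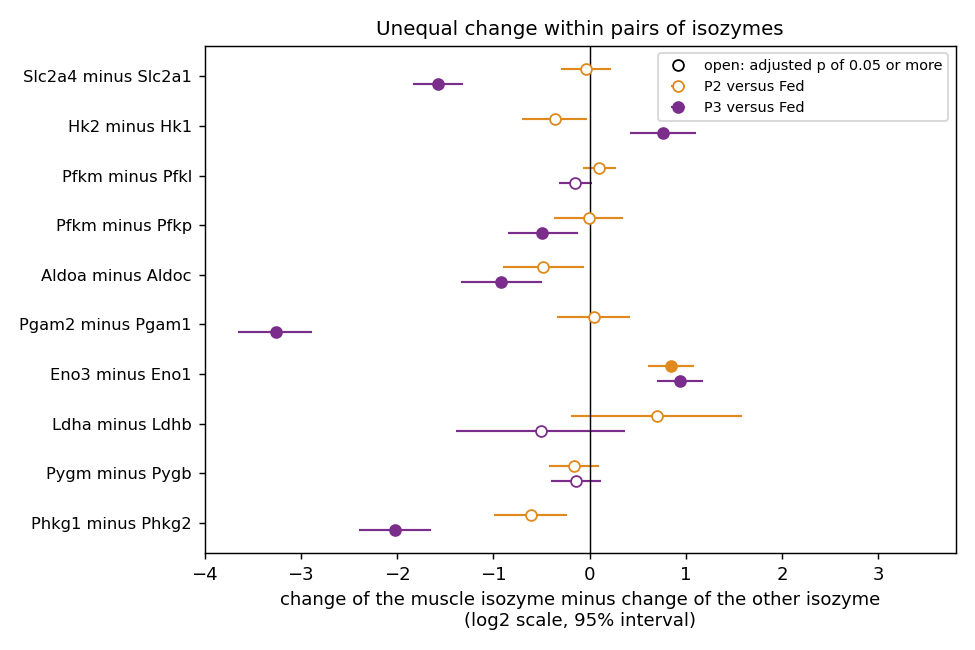
Change of the muscle isozyme minus change of the other isozyme versus Fed (horizontal axis, log2 scale) for 10 pairs (vertical axis), for P2 and P3, as the estimate with its 95% interval and filled where the adjusted p is under 0.05. In P3, Pgam2 minus Pgam1 lies farthest to the left at -3.26, and Hk2 minus Hk1 (0.76) and Eno3 minus Eno1 (0.94) lie to the right of 0.

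The difference Pgam2 minus Pgam1 was 3.20, 3.14 and 3.10 in Fed, 3.22, 2.84 and 3.51 in P2 and 0.01, 0.02 and -0.39 in P3. Fed and P2 overlapped, and the change in P3 was -3.26 ± 0.17 (95% interval -3.65 to -2.88, adjusted p = 1.81e-06). Phkg1 minus Phkg2 changed by -2.02 ± 0.17 in P3 (adjusted p = 2.15e-05), and its P2 change (-0.61 ± 0.17, adjusted p = 0.053) was called without P2 3 (-0.83, adjusted p = 0.00212). At glucose entry the transporters and hexokinases went opposite ways, with Slc2a4 minus Slc2a1 at -1.58 ± 0.11 (adjusted p = 1.09e-05) and Hk2 minus Hk1 at 0.76 ± 0.15 (adjusted p = 0.00407). Aldoa minus Aldoc changed by -0.92 ± 0.19 (adjusted p = 0.00495), with Aldoc higher and Aldoa not called. Aldoa lay at the top of the array scale and Aldoc near the array medians, and the part of these levels in the difference was not tested.

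Eno3 minus Eno1 was the sole pair called in P2 (0.84 ± 0.10, adjusted p = 0.00169), and it was not called in P3 versus P2 (0.10 ± 0.10, 95% interval -0.14 to 0.34, adjusted p = 0.657). Pfkm minus Pfkp was called in P3 (-0.49 ± 0.16, adjusted p = 0.0488) but not without Fed 1 (adjusted p = 0.101), Fed 2 (0.158), Fed 3 (0.0684), P2 2 (0.0504), P2 3 (0.0613), P3 1 (0.159), P3 2 (0.0509) or P3 3 (0.0794). For 3 pairs no difference was called in P3, with 95% intervals of -0.32 to 0.02 for Pfkm minus Pfkl, -1.39 to 0.37 for Ldha minus Ldhb and -0.40 to 0.12 for Pygm minus Pygb. Ldhb varied widely within P2 (SD 0.86), and without P2 2 the P2 change of the Ldha pair was called (1.21, adjusted p = 0.0161). The change of the Ldha pair in P3 versus P2 was not called (-1.21 ± 0.39, adjusted p = 0.0724). It was called with the mean of a gene's probe sets (-1.55, adjusted p = 0.0339), with array weights (-1.25, 0.0261) or without P2 2 (-1.72, 0.00143). In an exact permutation test (two-sided), 3 rats against 3 cannot give a p below 0.1, which every pair called in P3 reached. The median change of the 9 muscle isozymes was -0.25 in P3, with 5 lower and 1 higher, and that of the 10 other isozymes was -0.06, with 2 lower and 2 higher. Among all genes, 17.1% were called lower and 18.2% higher in P3 versus Fed. Slc2a1, Pfkl, Pfkp, Aldoc and Pygb had Fed means of 5.70 to 6.65, near the array medians, where a fall is harder to see. The muscle forms had Fed means of 10.11 or more, and the part of these levels in the medians was not tested.

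Other genes of these pathways and known regulators, 44 of 56 measured, included calls in both directions. In the rest of the glycogen pathway, 3 of 14 genes were higher and 3 lower in P3, or 21.4% each, close to the 18.2% and 17.1% of all genes. Gaa, the lysosomal acid glucosidase that digests glycogen, measured 9.54, 9.60 and 9.57 in Fed, 10.27, 10.22 and 10.22 in P2 and 10.75, 10.97 and 11.04 in P3. It rose without overlap at each phase by 0.66 ± 0.08 (P2, adjusted p = 0.0018) and 1.35 ± 0.08 (P3, adjusted p = 4.62e-06). Pgm2l1, a glucose 1,6-bisphosphate synthase, rose by 0.66 ± 0.10 in P3, and Gsk3b, a kinase that inhibits glycogen synthase, by 0.25 ± 0.07 (adjusted p = 0.000949 and 0.0287). The phosphatase catalytic subunits Ppp1cc (-0.40 ± 0.07, adjusted p = 0.00169) and Ppp1ca (-0.38 ± 0.12, adjusted p = 0.0368) and the laforin partner Nhlrc1 (-0.34 ± 0.09, adjusted p = 0.0219) were lower. Of these weaker calls, that of Gsk3b was lost without Fed 1, Fed 2, Fed 3, P3 1 or P3 3 (adjusted p = 0.0641 to 0.0967), that of Ppp1ca without any array but P2 1 or P2 2 (0.0553 to 0.111) and that of Nhlrc1 without Fed 1, Fed 3, P3 1 or P3 2 (0.0529 to 0.0782).

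In the rest of glycolysis and glucose supply, 3 of 15 genes were lower and 1 higher in P3 (20.0% and 6.67%, where 17.1% and 18.2% of all genes were called). Bpgm, which makes and removes 2,3-bisphosphoglycerate, was at 9.90, 10.14 and 10.16 in Fed, 10.05, 9.73 and 9.92 in P2 and 7.89, 8.14 and 7.77 in P3 (-2.13 ± 0.13 versus Fed, adjusted p = 3.67e-06). Fed and P2 overlapped, and P3 lay below both. Erythrocytes also express Bpgm, and the means of 2 erythrocyte markers were 7.21 to 7.35 in Fed, 5.67 to 5.93 in P2 and 5.72 to 5.88 in P3, while Bpgm was not called in P2 (adjusted p = 0.509). The part of erythrocyte RNA in the Bpgm values was not tested. Tigar, a fructose bisphosphatase, was lower in both phases. Its log2 fold change was -0.93 ± 0.10 in P2 (adjusted p = 0.000949) and reached -1.26 ± 0.10 in P3 (adjusted p = 2.01e-05). Slc2a12, the transporter GLUT12, fell by 1.09 in P3 (SE 0.14, adjusted p = 0.000425) and Pc, pyruvate carboxylase, rose by 0.59 ± 0.12 (adjusted p = 0.00492). Pck1, phosphoenolpyruvate carboxykinase, was higher in P2 alone of the phases (0.91 ± 0.12, adjusted p = 0.00258), as P3 was not called (-0.21 ± 0.12, adjusted p = 0.265), and the means of 6 adipocyte markers were likewise 5.45 to 5.58 in Fed, 6.0 to 6.67 in P2 and 5.47 to 5.67 in P3. The part of adipocyte RNA in this result was not tested.

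Of 15 known regulators of glycolytic genes, 4 were higher and 4 lower in P3, or 26.7% each beside 18.2% and 17.1% of all genes. Myc, a transcription factor that can activate Slc2a1, Ldha and other glycolytic genes, measured 6.17, 5.99 and 6.10 in Fed, 7.55, 7.73 and 7.52 in P2 and 9.19, 9.12 and 9.59 in P3. It rose without overlap in each phase by 1.52 ± 0.13 (P2, adjusted p = 0.000269) and 3.21 ± 0.13 (P3, adjusted p = 4.21e-07). Mlxipl, the glucose-responsive factor ChREBP, measured 8.37, 8.41 and 8.37 in Fed, 8.37, 8.39 and 8.21 in P2 and 6.61, 6.48 and 6.38 in P3, so that the P3 rats lay below all others (-1.90 ± 0.08, adjusted p = 7.04e-07). Its partner Mlx was higher in P3 (0.98 ± 0.12, adjusted p = 0.000244). The coactivator Ppargc1a (-1.91 ± 0.14, adjusted p = 1.15e-05) and the nuclear receptor Esrra (-1.41 ± 0.11, adjusted p = 1.81e-05) were lower in P3, and the HIF partner Arnt was slightly higher (0.30 ± 0.08, adjusted p = 0.0163), a call lost without Fed 2 (0.0573), P3 1 (0.0528) or P3 2 (0.0558). The muscle factors Mef2d and Mef2a moved apart, by 0.46 ± 0.11 and -0.42 ± 0.08 (adjusted p = 0.0121 and 0.00254).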

How the data were processed

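RNA of TIB from 9 rats was hybridised to Affymetrix Rat Gene 1.0 ST arrays. The deposited values are log2 intensities that the authors made with RMA in Affymetrix Expression Console 1.1, by quantile normalization between arrays and median polish over probes, and they were used as deposited. Of 29215 probe sets, 15310 had 1 gene symbol, 323 several and 13582 none, by the platform annotation, and 15279 matched a current gene ID. The quantile normalization fixes the overall distribution, so that a general loss of mRNA would not be seen.

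Group means were fitted to all probe sets and 9 arrays with limma 3.58.1 in R 4.3.3 (lmFit and eBayes), and p-values were adjusted over all probe sets by the Benjamini-Hochberg method. Isozyme pairs were fitted as 10 added differences. Errors are standard errors of the fit, and the number of arrays limits precision. The test was tried on simulated data. Promoter sequences are from RefSeq (GRCr8), and 4 of the measured genes had no window. The genes, lists, pairs and comparisons were chosen with earlier results of these data known. Values are given for genes that passed the test, for the isozymes of the pairs and for up to 4 genes per direction of each further list. Alternatives were a further quantile normalization, centring on array medians, a log2 filter of 5, probe sets with 1 symbol, an intensity trend, array weights, only the groups compared, the replicate number as a block, an adjusted p of 0.01, a fold of 1.5, the mean of a gene's probe sets, the methods' ANOVA and Tukey test at p of 0.001, and each array left out. Further genes of the pathway were put through most of these alternatives after the data were seen, and Hif1a and Pck1 were chosen for naming after their values were seen. Plots come from matplotlib 3.10.9 in Python 3.11.15.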

Additional observations from a re-analysis of the deposited data

Results flagged for a closer look

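For 5 genes, the change versus Fed had opposite signs in P2 and P3, and the test of P3 versus P2 was passed. The P2 change itself was not called in any of the 5. The log2 fold change of P3 versus P2 was -4.02 for Fbp2, -1.63 for Pfkfb1, 1.08 for Hk2, -0.40 for Slc2a4 and -0.31 for Pfkm.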

How the results depend on the processing

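Of 4590 values of single genes and pairs under part of the alternatives, 4384 kept their side of the threshold, 140 lost a call and 66 gained it. Left out of these values were the log2 filter, the restriction to probe sets with 1 symbol, the adjusted p of 0.01 and the fold threshold. The methods' ANOVA and Tukey test, which called fewer genes, was left out as well. For the settings left out, only the numbers of calls were taken, so the 4384 do not describe stability under them. A change of direction was counted only for values with a call, and 0 were found. Values without a call could change sign and still count among the 4384. Pfkfb2 in P2 versus Fed, for example, was -0.23 with all arrays and 0.06 without P2 1. With each array left out in turn, the number of genes lower ranged from 5 to 8 (P2 versus Fed), 18 to 21 (P3 versus Fed) and 17 to 20 (P3 versus P2), the number higher was 0, 4 to 6 and 2 to 3, and the number of isozyme pairs with unequal change from 1 to 2, 6 to 7 and 4 to 5. The methods' ANOVA and Tukey test at p of 0.001 called 3 genes lower in P2. It called 16 lower and 1 higher in P3 versus Fed, and 14 lower and 1 higher in P3 versus P2. These counts were the same with and without the Benjamini-Hochberg adjustment, and the threshold differs as well. At an adjusted p under 0.01, limma called 18 genes lower in P3 versus Fed and 15 in P3 versus P2. Array weights called 1 gene higher in P2 (Ppp1r3a). An intensity trend with robust moderation called 2 pairs in P2, and the exact permutation test called 0 pairs in each comparison, since its smallest p is 0.1. The cause of the other changes was not tested.

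The replicate numbers do not pair the rats, since r between the deviations of arrays with the same number was -0.243 to 0.123 and an array correlated best with its own number in 6 of 18 cases. With the number as a replicate block, the genes lower and higher were 7 and 0 (P2 versus Fed), 18 and 5 (P3 versus Fed) and 17 and 3 (P3 versus P2), and the pairs 1, 6 and 4.

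Limits are the 3 rats per group, with values near the top of the scale for 11 of the 41 genes, whose mean level lay at or above the 99th percentile of all probe sets.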
